A study of Homo sapiens with 4 samples.

Results

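The genes that still differed between cells given interleukin-1 (IL-1) and unstimulated cells when both cultures had been exposed to trichostatin A (TSA) were examined across 9677 annotated genes. These are the genes with a detection p-value under 0.01 for at least 1 of their probes on the array with IL-1 and TSA (IL1_TSA) or on the array with TSA alone (Con_TSA), out of 10128 genes so detected on any of the 4 arrays of the study and 18661 annotated genes. SW1353, a human chondrosarcoma line that the labels call a chondrocyte, was cultured in DMEM. The IL1_TSA cells received TSA at 250 ng/ml for 1 h before IL-1α for 6 h, and the Con_TSA cells received the same TSA without IL-1α. The IL1 and Con cells received DMSO in place of TSA, with and without IL-1α, and serve here as the matching pair without TSA. The sources used here do not give the IL-1α concentration on the arrays, and the study's legends name a longer stimulation than the labels, whose time is used. Each label gives the same single replicate, so every difference compares 2 single arrays of 1 cell line, there is no replicate check and no test was made. Higher and lower mean a difference of at least 1.5-fold, the threshold of the study, with the gene detected on the brighter array. Genes called neither are counted as within 1.5-fold, also where a larger difference had no detection on the brighter array.

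IL-1 binds a cell surface receptor whose adaptor kinases, the IRAKs, activate the IκB kinase complex. IκB proteins, which hold NF-κB dimers in the cytoplasm, are then degraded, NF-κB enters the nucleus, and genes with κB elements are transcribed, among them chemokines, cytokines, matrix metalloproteinases (MMPs) and the IκB proteins and deubiquitinases that switch the pathway off again. In cartilage this response is known for the loss of matrix, since several MMPs cleave collagen and aggrecan. TSA blocks the zinc-dependent histone deacetylases (HDACs), which remove acetyl groups from histones and from other proteins.

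Levels are given as log2 of the normalised probe intensity, averaged over the probes of a gene, and a difference is the IL1_TSA level minus the Con_TSA level unless another pair is named. The share of all probes on an array that were detected ran from 26.8% to 28.8% over the 4 arrays, with 14033 probes detected on IL1_TSA and 13365 on Con_TSA. The median scanner intensity of IL1_TSA was 113, against 86.9 for Con_TSA, and whether this offset, which normalisation removes, contributes to small differences was not tested. Of 11 cartilage markers, SOX9, HAPLN1 and COL11A1 were detected on both TSA arrays and COL2A1, ACAN, COMP, SOX5, SOX6, COL9A1, MATN3 and PRG4 were not, so most of the defining cartilage matrix genes were absent from the detected set. Of 5 mesenchymal markers, VIM, COL1A1 and COL1A2 were detected at levels between 12.4 and 15.1 on both arrays, FN1 was dim at 6.71 in IL1_TSA and 6.80 in Con_TSA with 2 of 3 probes detected, and THY1 was not detected. Of 11 markers of leukocytes, endothelium and epithelium, CD68 and VWF were detected, with differences of -0.03 and -0.35, and 9 were not detected.

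With TSA present, IL-1 left a short list of large increases and almost no large decreases. Of the 9677 genes, 430 (4.44%) were higher in IL1_TSA and 281 (2.9%) were lower. In such bulk RNA, more responding cells and more RNA per cell cannot be told apart. At 2-fold the measured differences gave 146 higher and 23 lower, and at 4-fold 54 higher and 1 lower. At 8-fold they gave 31 higher and 0 lower, with 16 genes past 16-fold. The middle 90% of differences lay between -0.49 and 0.56, around a median of -0.03, so that most genes differed by less than the threshold. Without TSA the same genes gave 711 higher (7.35%) and 718 lower (7.42%) in IL1 against Con, with 382 higher and 147 lower at 2-fold and 121 higher and 7 lower at 4-fold. The share of higher genes among all called with TSA was 60.5%. It was 77.4% without background correction, 88.3% on the deposited log2 values and 97.9% when the arrays were scaled by their medians, which moved the median difference of all members to 0.36. Of the 430 higher genes, 256 were detected on both arrays and 174 on IL1_TSA alone. Where the dim array did not detect a gene, or its mean lay under the lowest level of a detected probe there (6.39 for IL1_TSA and 6.63 for Con_TSA), the fold is given as a lower bound against that level, and counted in this way 310 genes were higher and 210 lower. For named genes with only some probes detected on the dim array, the undetected probes are set at that level and the fold is likewise a bound. The bounds hold on this scale and other processing can give smaller folds. Counts by fold, here and below, use the measured differences unless bounds are named, so they include genes whose bound is smaller. CSF3, for example, counts at 8.91-fold with a bound of 2.47-fold, and IL23A at 16.4-fold with a bound of 4.91-fold.

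**Figure D1:**
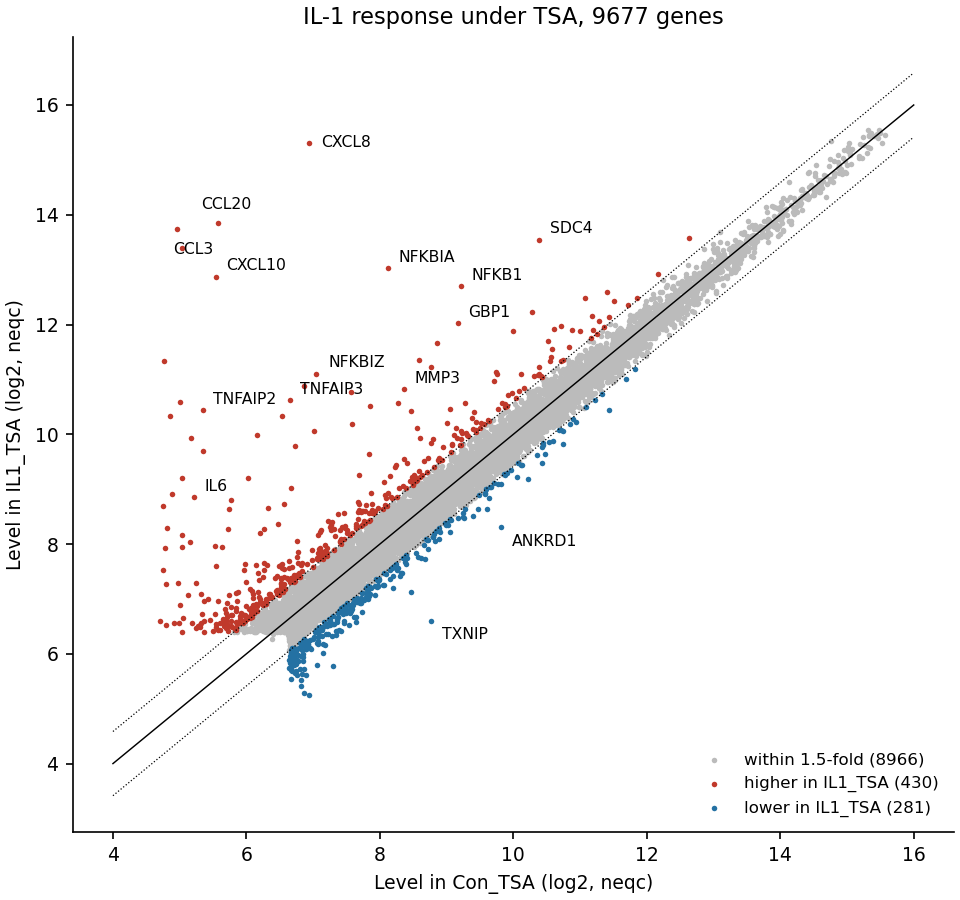
Level of each of 9677 genes in IL1_TSA (vertical axis) against its level in Con_TSA (horizontal axis), both as log2 of normalised intensity from 1 array each; the solid line marks equality and the dotted lines 1.5-fold. The 430 higher genes (red) reach far from the line, while the 281 lower genes (blue) lie close to it except TXNIP.

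Large increases recurred on a second probe of the gene more often than small ones, while decreases seldom recurred. Of the 9677 genes, 7464 had 1 kept probe and 2213 had at least 2. Over all 2213, probes agreed in direction for 1254 genes (56.7%). Among the 77 higher genes with several probes, 74 had all probes in the same direction and 42 had every probe past 1.5-fold, and for the 28 past 2-fold these counts were 28 and 26. Among the 20 lower genes with several probes, all 20 agreed in direction, but every probe was past the threshold in 5. A gene is called on the mean of these same probes, which favours agreement, so these counts are no independent check. When the first probe alone was past the threshold upwards, which happened for 104 genes, the second probe was past it again for 42 (40.4%), while of 69 genes lower on the first probe 6 (8.7%) were lower on the second. Of 36 genes at least 2-fold higher on the first probe, 26 were higher on the second, and of 4 at least 2-fold lower, 0 were lower on the second. The standard deviation of the difference between probes of the same gene was 0.44 for genes with a mean level under 7, 0.28 at levels of 8 to 10 and 0.16 at levels of 12 and above. This spread is that of the measurement and of probe design and does not include variation between cultures. The threshold of 1.5-fold is 0.58 on the same scale.

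**Figure D2:**
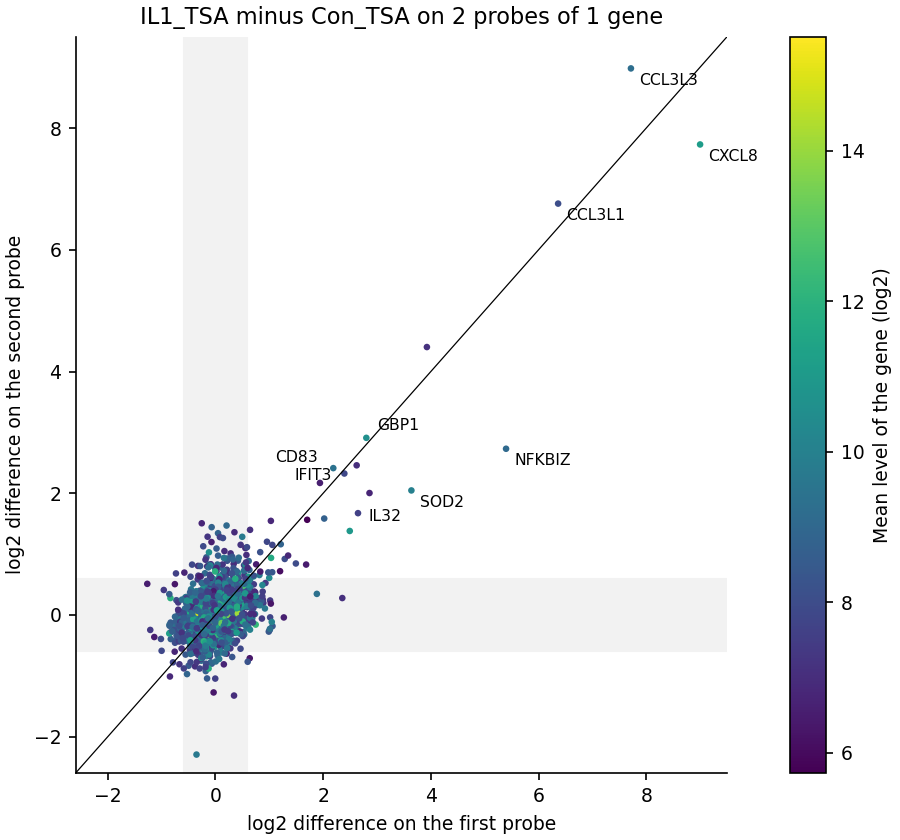
Log2 difference between IL1_TSA and Con_TSA on the second probe of a gene (vertical axis) against that on its first probe (horizontal axis) for 2213 genes with at least 2 kept probes, coloured by the mean level of the gene; grey bands mark differences under 1.5-fold. Genes such as CXCL8, CCL3L3, NFKBIZ, GBP1 and SOD2 were high on both probes. The single gene below -2 on its second probe, TUBG1, was also negative on its first, but within 1.5-fold.

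Chemokines held the largest increases. CXCL8, the neutrophil attractant also called IL-8, had scanner intensities of 44899.7 and 41471 on its 2 probes in IL1_TSA and of 134 and 203 in Con_TSA. Its mean level was 15.30 in IL1_TSA against 6.94 in Con_TSA, a difference of at least 306-fold, since 1 of the 2 probes was not detected in Con_TSA. The measured differences of the probes were 9.0 and 7.73 on the log2 scale, the larger one against the undetected signal. The IL1_TSA signal lies near the top of the range of that array, whose highest probe read 50634, and the effect of saturation on this fold was not tested. CCL20, an attractant of T helper cells and dendritic cells acting through CCR6, read 18240.4 in IL1_TSA against 103 in Con_TSA, where it was not detected, and was at least 149-fold higher. CCL3, a macrophage inflammatory protein and ligand of CCR1, was at least 139-fold higher, with a level of 13.74 in IL1_TSA against 4.96 in Con_TSA. The bounds for its near-identical copies CCL3L3 and CCL3L1 were 109-fold and 26.1-fold, but probes for these copies can share signal and the 3 genes are not separate observations. CXCL10, an interferon-inducible ligand of CXCR3, was at least 76.1-fold higher. In all, 9 of the 11 chemokines detected of 26 listed were higher and 0 lower, against 4.44% and 2.9% of all members. Their median difference was 3.18 against -0.03 over all members, or 2.57 with undetected genes at their bound. On the deposited values 7 of the 11 were higher, with a median of 0.91. Genes detected on IL1_TSA alone are members only because they are high there. Among genes detected on both TSA arrays, none of the 35 list medians, the chemokines included, was above 1.12. CCL8 reached 9.20 in IL1_TSA against 6.02 in Con_TSA, where it was not detected, and was at least 5.95-fold higher.

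The cytokine genes split between a few clear increases and several that rested on low signal. The 13 cytokine genes detected of 31 listed had 9 higher and 0 lower, against 4.44% and 2.9% of all members. Their median difference was 1.89, resting partly on genes detected on IL1_TSA alone, and at most 1.12 among genes detected on both TSA arrays. IL36G, a member of the IL-1 family, was at least 13.0-fold higher, with 10.33 in IL1_TSA against 4.86 in Con_TSA. IL23A, a subunit of IL-23, was at least 4.91-fold higher, IL6 at least 4.67-fold, IL1B, a ligand of the IL-1 receptor itself, at least 4.21-fold and IL32 at least 3.17-fold. CSF3, which encodes the granulocyte growth factor G-CSF, read 407 in IL1_TSA against 73.8 in Con_TSA and was at least 2.47-fold higher. Taking undetected genes at their bound, or at 0 where no fold can be given, the median of the list was 0.81, and on the deposited values 5 of the 13 were higher, with a median of 0.30. Of the TNF superfamily ligands and receptors 5 of 11 were higher and 0 lower, against 4.44% and 2.9% of all members. TNFRSF9 (4-1BB) led them, at least 13.1-fold higher, with 10.34 in IL1_TSA against 6.53 in Con_TSA.

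Genes for the NF-κB proteins and their inhibitors were mostly higher. Of 10 detected genes encoding subunits or IκB proteins, 8 were higher and 0 lower, against 4.44% and 2.9% of all members. Their median difference was 1.41, or 1.12 with undetected genes at their bound. On the deposited values 3 of the 10 were higher, with a median of 0.41. NFKBIA, which encodes IκBα, read 10646.9 in IL1_TSA against 281 in Con_TSA, a 30.1-fold difference. NFKBIZ, the nuclear IκBζ that IL6 and other secondary genes need, was at least 10.8-fold higher, with 11.10 in IL1_TSA against 7.04 in Con_TSA, where 1 of its 2 probes was not detected. NFKB1, the precursor of p50, was 11.2-fold higher, with 12.70 in IL1_TSA against 9.22 in Con_TSA. RELB was at least 3.35-fold and NFKB2 2.28-fold higher. RELA, which encodes the p65 subunit and was picked out after its values were seen, was within 1.5-fold, with 7.84 in IL1_TSA against 8.21 in Con_TSA.

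Stretches before the transcription start of 8 of the most increased genes are shown because each holds a match to the letters of a κB element, the kind of sequence that NF-κB dimers bind. They are RefSeq promoter windows of build GRCh38.p14, written 5′ to 3′ on the strand of the gene, with bases that match GGNNTTTCC or GGGNNTTCC on either strand in capitals and 20 bases on each side of 1 match. The patterns overlap, so a base can belong to matches of both.
CXCL8: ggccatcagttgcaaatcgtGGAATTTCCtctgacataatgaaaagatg
NFKBIA: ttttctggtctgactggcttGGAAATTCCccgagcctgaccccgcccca
NFKBIZ: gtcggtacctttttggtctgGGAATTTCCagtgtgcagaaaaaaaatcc
TNFAIP3: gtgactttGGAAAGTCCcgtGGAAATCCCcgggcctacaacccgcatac
NFKB1: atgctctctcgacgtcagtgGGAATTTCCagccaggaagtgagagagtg
SDC4: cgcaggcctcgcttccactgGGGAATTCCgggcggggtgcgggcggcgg
MAP3K8: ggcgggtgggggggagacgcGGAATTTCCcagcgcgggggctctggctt
GBP1: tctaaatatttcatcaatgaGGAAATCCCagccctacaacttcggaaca
The CXCL8 stretch is chr4:73740458-73740506 on the plus strand and its match begins 91 bases before the start. The NFKBIA stretch is chr14:35404802-35404850 on the minus strand (81 bases before the start), NFKBIZ chr3:101827748-101827796 on the plus strand (222 bases), TNFAIP3 chr6:137867184-137867232 on the plus strand (55 bases), NFKB1 chr4:102501291-102501339 on the plus strand (48 bases), SDC4 chr20:45348492-45348540 on the minus strand (96 bases), MAP3K8 chr10:30433972-30434020 on the plus strand (29 bases) and GBP1 chr1:89065242-89065290 on the minus strand (62 bases). All lie upstream of the annotated start of their gene. The sequence GGAATTTCC recurs in CXCL8, NFKBIZ, NFKB1 and MAP3K8.

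The share of genes with such a match was larger among the genes with larger increases. In the 250 bases before the start, 9.44% of all 35116 promoter windows held a match to either pattern (5.48% to GGNNTTTCC and 5.78% to GGGNNTTCC, which overlap). Counted by gene, with any of its windows, 1169 of the 8014 members with a window held one (14.6%), against 79 of 329 higher genes (24.0%), 19 of 36 genes at least 4-fold higher (52.8%) and 35 of 232 lower genes (15.1%). Of the 32 genes with a window that were at least 4-fold higher with IL-1 in the absence of TSA but within 1.5-fold in its presence, 6 held a match (18.8%). A second pattern, GAAANNGAA on either strand, is part of the element that interferon-activated factors bind and was added after the values were seen. This pattern was present in 6.88% of all windows and in 7.30% of members. Its share was larger in those 32 genes (20, 62.5%) than in the 36 genes at least 4-fold higher with TSA (9, 25%). For the first pattern the order of these 2 sets was the reverse. The second pattern was not counted in the sets called at 1.5-fold. These are matches of letters, counted without a test, and genes with several windows had more chances to hold one. In all, 54 genes were at least 4-fold higher with TSA by the measured difference. Those without a window, among them MMP1, MMP3, MMP13 and CEBPD, are left out of these shares.

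Genes listed here as feedback regulators of NF-κB signalling gave mixed values. TNFAIP3, which encodes the ubiquitin-editing enzyme A20, read 2121 in IL1_TSA against 145 in Con_TSA, a 15.7-fold difference. ZC3H12A, the ribonuclease Regnase-1 that degrades IL6 mRNA, was 9.26-fold higher, with 10.78 in IL1_TSA against 7.57 in Con_TSA. TNFAIP2, in the same list, was at least 14.1-fold higher, and its listing is no evidence that it damps NF-κB. Over all members 4.44% were higher and 2.9% lower. Of the 14 feedback genes detected of 24 listed, 6 were higher, 1 was lower and 7 were within 1.5-fold. The median difference of the 14 was 0.50. The lower gene was N4BP1, named after its values were seen, with 6.89 in IL1_TSA against 7.56 in Con_TSA. Upstream of NF-κB, 4 of the 20 detected genes for IL-1 receptor and IκB kinase signalling were higher and 1 was lower, with a median difference of 0.00. MAP3K8, the kinase Tpl2 that links the IκB kinase complex to ERK, was 8.30-fold higher, with 10.06 in IL1_TSA against 7.01 in Con_TSA. IRAK2 was 2.95-fold and RIPK2 1.63-fold higher, and TOLLIP, an adaptor that restrains IL-1 receptor signalling, was lower at 7.76 in IL1_TSA against 8.58 in Con_TSA.

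The 4 collagenase and stromelysin genes MMP1, MMP3, MMP10 and MMP13 were still higher with IL-1 when TSA was present. MMP1, interstitial collagenase, read 1404 in IL1_TSA against 124 in Con_TSA and was at least 10.2-fold higher. MMP13, the collagenase with the highest activity on type II collagen, was 6.03-fold higher, with 10.18 in IL1_TSA against 7.59 in Con_TSA. The stromelysins MMP10 and MMP3 were 5.54-fold and 5.51-fold higher. MMP12, macrophage elastase, was barely above the detection limit, with 6.88 in IL1_TSA against 5.0 in Con_TSA, and at least 1.19-fold higher. Those 5 were the higher genes among the 16 detected matrix proteases and inhibitors, and 1, the procollagen peptidase ADAMTS2, was lower. Over all members 4.44% were higher and 2.9% lower. The median difference of the 16, 0.11, was close to that of all members. Without TSA the same genes differed more, MMP3 by 45.7-fold (13.90 in IL1 against 8.38 in Con), MMP13 by at least 67.2-fold, MMP1 by at least 49.3-fold, MMP10 by 11.3-fold and MMP12 by at least 103-fold. Starting levels did not follow a common direction, since MMP13 was at 7.59 in Con_TSA against 6.27 in Con, while MMP3 was at 8.36 in Con_TSA against 8.38 in Con.

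Cell surface and secreted genes of the inflammatory response were the next group. SDC4, a heparan sulphate proteoglycan that activates the aggrecanase ADAMTS5 in mouse cartilage, read 14932.8 in IL1_TSA against 1078 in Con_TSA and was 8.93-fold higher. TNFAIP6, the hyaluronan-binding protein TSG-6, was 8.30-fold higher, with 9.78 in IL1_TSA against 6.73 in Con_TSA. CD44, the hyaluronan receptor, was at least 2.68-fold higher, with 2 of its 3 probes detected in Con_TSA and all 3 higher in IL1_TSA. CD83 was 4.93-fold higher with probes at 2.19 and 2.41. LCN2, which encodes lipocalin-2, had a bound of 4.53-fold and SAA1, an acute-phase protein, one of 3.12-fold. In the list of adhesion, hyaluronan and secreted proteins 9 of 28 were higher and 0 lower, against 4.44% and 2.9% of all members. The median difference of the list was 0.29. OLR1, the receptor for oxidised LDL, was at least 15.7-fold higher.

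Among transcription factors and enzymes, CEBPD, a C/EBP factor of the acute phase, was 6.33-fold higher, with 10.52 in IL1_TSA against 7.86 in Con_TSA, and ELF3, an ETS factor, was at least 8.41-fold higher. IRF1 was 3.90-fold and the AP-1 subunit JUNB 2.96-fold higher. The 17 detected AP-1 and immediate early genes had a median difference of 0.44. Of these, 5 were higher and 0 lower, against 4.44% and 2.9% of all members. SOD2, mitochondrial superoxide dismutase, was at least 4.52-fold higher, with 2 of its 3 probes detected in Con_TSA. PTGES, which makes prostaglandin E2, was at least 2.98-fold higher and GCH1, which starts biopterin synthesis, at least 1.66-fold, while PTGS2 (COX-2), at 6.99 in IL1_TSA against 5.42 in Con_TSA, was at least 1.29-fold higher. XIRP1, an actin-binding protein of striated muscle, was among the 30 largest increases detected on both arrays, with 2511 in IL1_TSA against 158 in Con_TSA, a 16.3-fold difference on 1 probe.

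**Figure D3:**
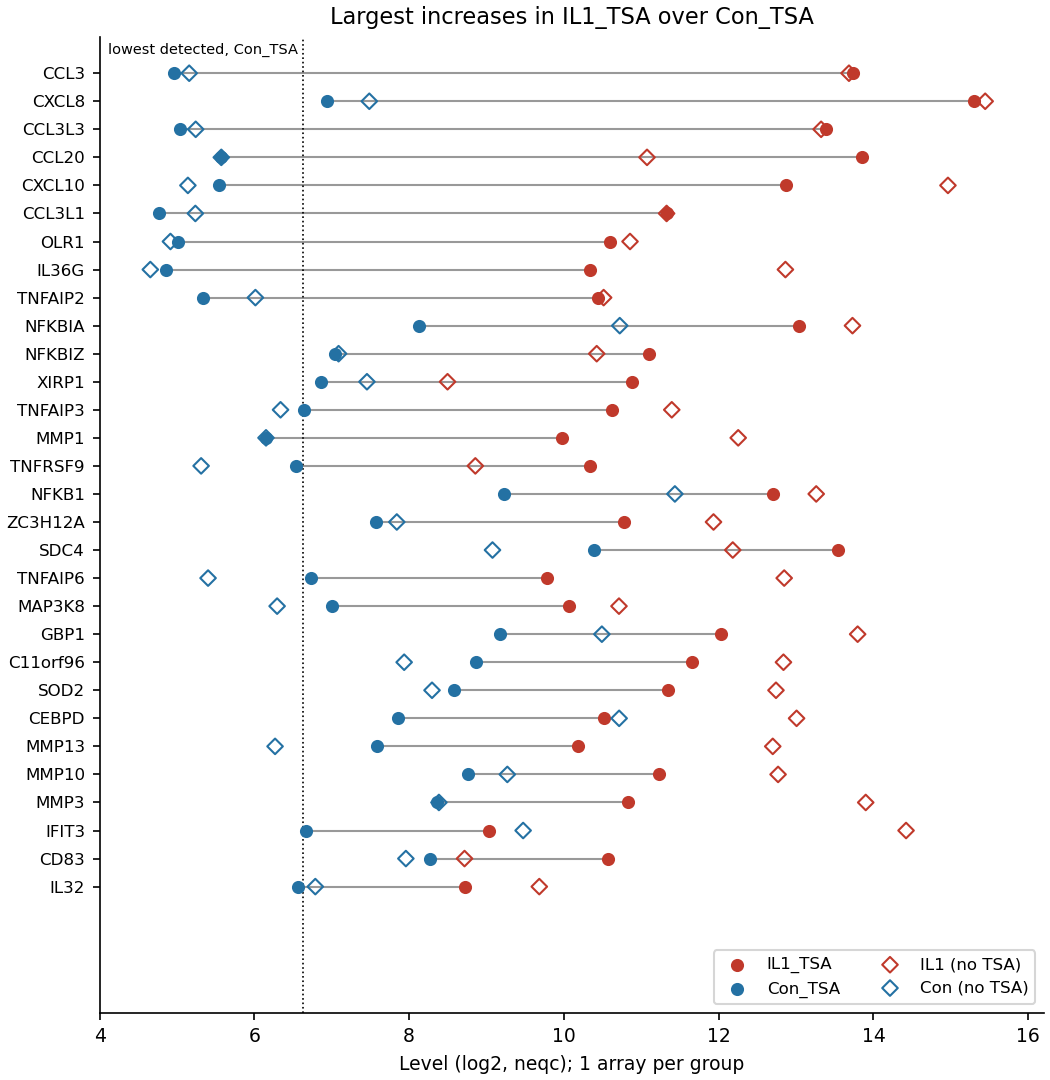
Levels of 30 of the most increased genes (rows) as log2 of normalised intensity, with 1 array per group: IL1_TSA (filled red), Con_TSA (filled blue), IL1 (open red) and Con (open blue); the dotted line is the lowest level of a detected probe on Con_TSA. Every filled red point lies to the right of its filled blue point, and for IFIT3, MMP3 and TNFAIP6 the open red point lies much further to the right.

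Decreases were few and small. TXNIP, the thioredoxin-binding protein, was the only gene at least 4-fold lower, with 212 in IL1_TSA against 398 in Con_TSA on the scanner scale and normalised levels of 6.60 in IL1_TSA against 8.77 in Con_TSA, a difference of -2.17 (-0.64 on the deposited values). ANKRD1, a target of the YAP co-activator, had 8.31 in IL1_TSA against 9.82 in Con_TSA, and LDAH, a lipid droplet hydrolase, had 7.13 in IL1_TSA against 8.46 in Con_TSA. TUBG1, γ-tubulin, had a mean difference of -1.04 that rested on 1 of its 3 probes at -2.29, which IL1_TSA did not detect, while the brighter probes gave -0.35 and -0.47. Only 12 of the 281 lower genes were also past 1.5-fold on the deposited values, against 79 of the 430 higher genes, although all 281 and all 430 kept their sign. The lower genes sat near the detection limit, with median levels of 6.83 in IL1_TSA and 7.58 in Con_TSA, whereas the median level of all members was 8.97. The higher genes were also near the limit on their dim array, with median levels of 8.19 in IL1_TSA and 6.98 in Con_TSA.

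The HDAC genes themselves, the targets of TSA, differed little. HDAC1, HDAC2 and HDAC3 had differences of 0.01, 0.01 and -0.01, and HDAC4, HDAC6, HDAC8 and HDAC11 between 0.07 and -0.39. HDAC5 and HDAC9 were called lower and higher from levels near the detection limit, HDAC5 at 5.61 in IL1_TSA against 6.76 in Con_TSA and HDAC9 at 6.97 in IL1_TSA against 5.36 in Con_TSA. HDAC7 and HDAC10 were detected on neither TSA array. Heat shock proteins and chaperones had 0 of 23 genes called, with a median of 0.23. Over all members 7.35% were called in either direction, against 0 of 12 reference genes, 0 of 71 ribosomal proteins, 0 of 29 glycolysis and hypoxia genes, 1 of 34 proteasome subunits (2.94%) and 1 of 80 respiratory chain subunits (1.25%). The respiratory chain gene was COXFA4L3, at least 2.62-fold higher. The cell cycle list, with 3 of 38 called (7.89%), and the cartilage matrix and identity list, with 1 of 22 higher (4.55%), were near the shares of all members. Set against the median of all members, the reference, ribosomal, glycolysis, redox defence and HDAC lists changed sign under median scaling.

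**Figure D4:**
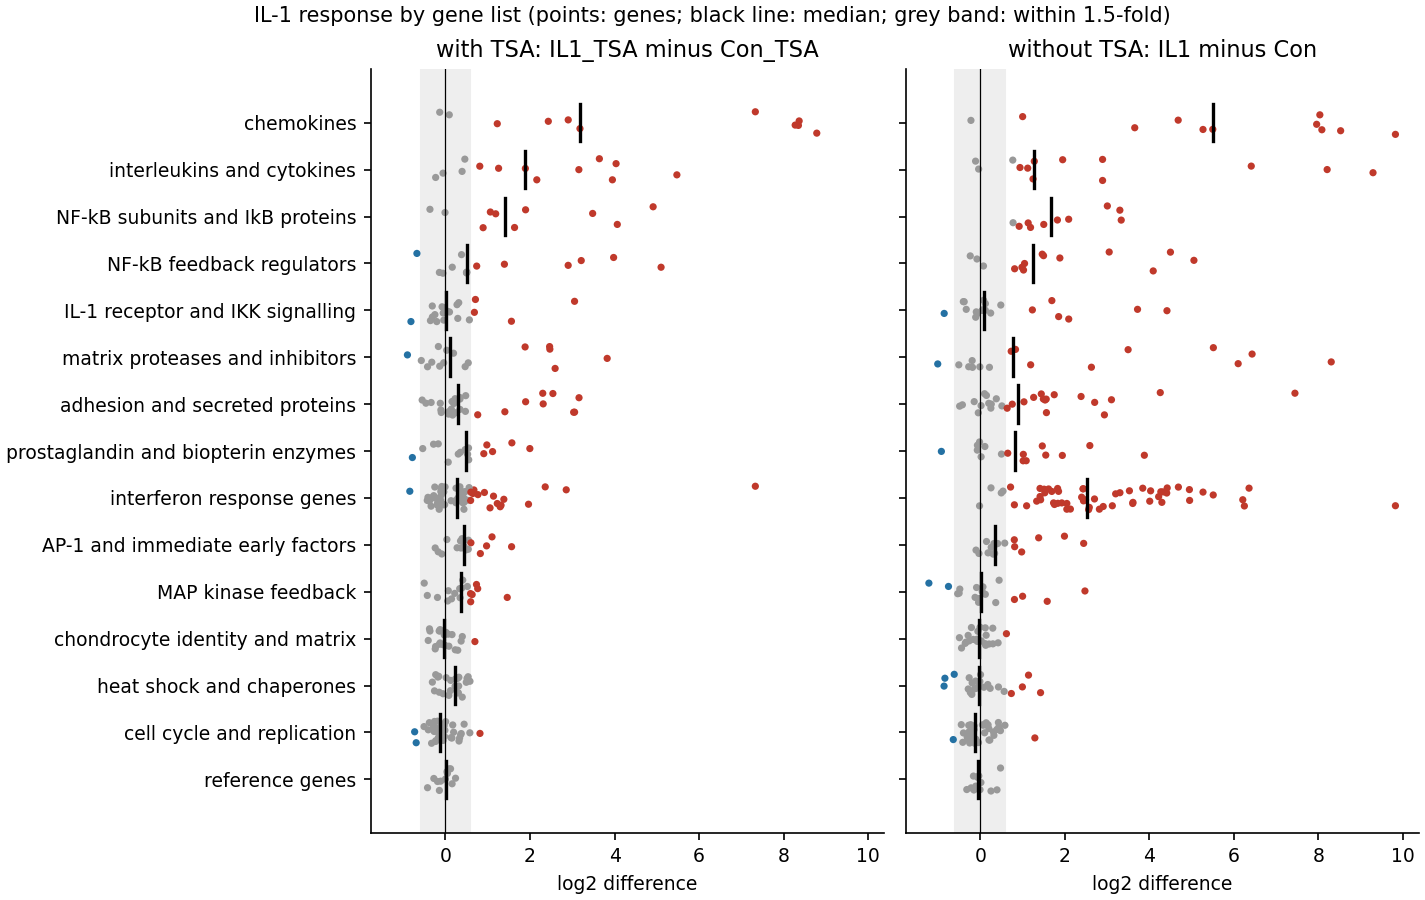
Log2 differences of single genes (points) in 15 gene lists, with TSA (left, IL1_TSA minus Con_TSA) and without TSA (right, IL1 minus Con), where red points are higher, blue points lower, the grey band is within 1.5-fold and the black line is the median of the list. The interferon list has a median of 0.27 on the left and 2.53 on the right, while the NF-κB subunits and IκB proteins have 1.41 on the left and 1.66 on the right.

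Interferon response genes were where the response with TSA and that without it differed most in number. Over all members 4.44% were higher and 2.9% lower with TSA, and 7.35% and 7.42% without it. Of the 58 interferon genes detected of 82 listed, 16 were higher and 1 lower with TSA, with a median difference of 0.27. Without TSA 54 were higher and 0 lower, with a median of 2.53. With undetected genes at their bound the medians were 0.16 with TSA and 2.47 without, and on the deposited values 5 were higher with TSA. All 16 were also higher without TSA. GBP1, an interferon-induced GTPase, was 7.24-fold higher with TSA, its probes at 2.80 and 2.91, and IFIT3, which binds viral RNA complexes together with IFIT1, was at least 4.62-fold higher, at 9.03 in IL1_TSA against 6.67 in Con_TSA. OASL, IFIT1 and ISG15 were not. OASL had 7.38 in IL1_TSA against 7.66 in Con_TSA, but 11.86 in IL1 against 5.61 in Con. IFIT1 had 10.82 in IL1_TSA against 10.38 in Con_TSA, but 14.93 in IL1 against 8.71 in Con, and ISG15 had 9.29 in IL1_TSA against 9.04 in Con_TSA, but 12.57 in IL1 against 8.24 in Con. For these 3 the level with TSA alone was above that in Con, by 2.04, 1.67 and 0.79. For GBP1 and IFIT3 it was below, with Con_TSA minus Con at -1.32 and -2.80. These are measured differences. The OASL level in Con lay under 6.63, the lowest level of a detected probe there, and 1 of the 2 IFIT3 probes was detected in Con_TSA. The part of these starting levels in the smaller rises was not tested. The 10 largest rises without TSA that stayed within 1.5-fold with TSA were all interferon response genes by their known function, OASL, IFIT1, IFI44, IFIH1, SAMD9L, ISG15, SAMD9, HERC5, HELZ2 and OAS3.

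The overlap of the 2 responses was larger for genes with larger rises. The pair of arrays with TSA and the pair without share no array. Of the 711 members higher with IL-1 without TSA, 197 were also higher with TSA (27.7%), and they were 45.8% of the 430. The share is a count on 4 single arrays, with no measure of its precision. Other processing gave shares from 20.5% to 57.6%. Over all members 4.44% were higher with TSA. By the size of the rise without TSA, the share was 12.2% of 329 genes between 1.5-fold and 2-fold, 29.1% of 261 between 2-fold and 4-fold, 51.0% of 51 between 4-fold and 8-fold, 76.9% of 26 between 8-fold and 16-fold and 79.5% of 44 past 16-fold. Of the 718 lower without TSA, 51 were lower with TSA (7.10%), against 2.9% of all members. These shares leave out 451 genes detected on IL1 or Con but on neither TSA array, of which 150 were higher with IL-1 and 70 at least 4-fold. With them the share was 22.9% of 861. By size it was 10.9%, 25.1%, 27.1%, 51.3% and 62.5% in the same order. The share from 4-fold to 8-fold was then close to that from 2-fold to 4-fold. CCL2, the monocyte attractant MCP-1, was one of them, with 12.56 in IL1 against 7.34 in Con and detected on neither TSA array, where its levels were 5.87 in IL1_TSA and 4.88 in Con_TSA. RSAD2, MX2 and CFB, named after their values were seen, were others, not detected in Con and at least 29.6-fold, 37.9-fold and 17.2-fold higher in IL1.

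Among the 197 genes higher in both pairs, the rise with TSA was smaller by at least 1.5-fold for 93, within 1.5-fold for 93 and larger for 11. The median rise was 1.05 with TSA and 1.70 without, both from measured differences and not bounds. The level reached in IL1_TSA was lower than in IL1 for 114, within 1.5-fold for 63 and higher for 20. The measured level in Con_TSA was lower than in Con by at least 1.5-fold for 59 and higher for 40. These 2 starting-level counts ask for no detection and include genes undetected on both arrays, such as TRAF1 at 5.04 in Con_TSA and 5.96 in Con. NFKBIA and NFKB1 had larger rises with TSA and lower starting levels, NFKBIA at 8.12 in Con_TSA against 10.72 in Con, with 13.03 in IL1_TSA against 13.73 in IL1. CCL20 had the same undetected baseline in both pairs, 5.58 in Con_TSA and 5.57 in Con, and reached 13.85 in IL1_TSA against 11.07 in IL1. IL6 reached 8.85 in IL1_TSA against 14.31 in IL1, and CXCL8 15.30 in IL1_TSA against 15.44 in IL1. Of the 54 genes at least 4-fold higher with TSA by the measured difference, 48 were also higher without it. Taken over all 9677 genes, no replicates of each other, the 2 differences had a Pearson correlation of 0.54 and a Spearman correlation of 0.25, and the Pearson value was 0.19 without the 197 genes.

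A further 220 genes were higher with TSA and called neither higher nor lower without it, and most were dim. Their median level in IL1_TSA was 7.65, against 9.03 for the 197. Of the 220, 122 were detected on both TSA arrays, 42 were past 2-fold and 12 were past 1.5-fold on the deposited values. REL was among them, with a difference of 0.78 without TSA but no detection on IL1 or Con. SELE, the endothelial adhesion receptor E-selectin, read 494 in IL1_TSA against 75.5 in Con_TSA and was at least 3.16-fold higher, while it was detected on neither array without TSA. CSF3 was likewise detected on IL1_TSA alone. RND1, an atypical small GTPase, read 611 in IL1_TSA against 130 in Con_TSA, where it was not detected, and was at least 4.10-fold higher, against 98.0 in IL1 and 81.7 in Con. STMN4, a microtubule-destabilising stathmin, was at least 2.49-fold higher. HS3ST2, a heparan sulphate sulphotransferase, was detected on both TSA arrays and had 9.94 in IL1_TSA against 8.61 in Con_TSA, and 7.83 in IL1 against 7.89 in Con.

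**Figure D5:**
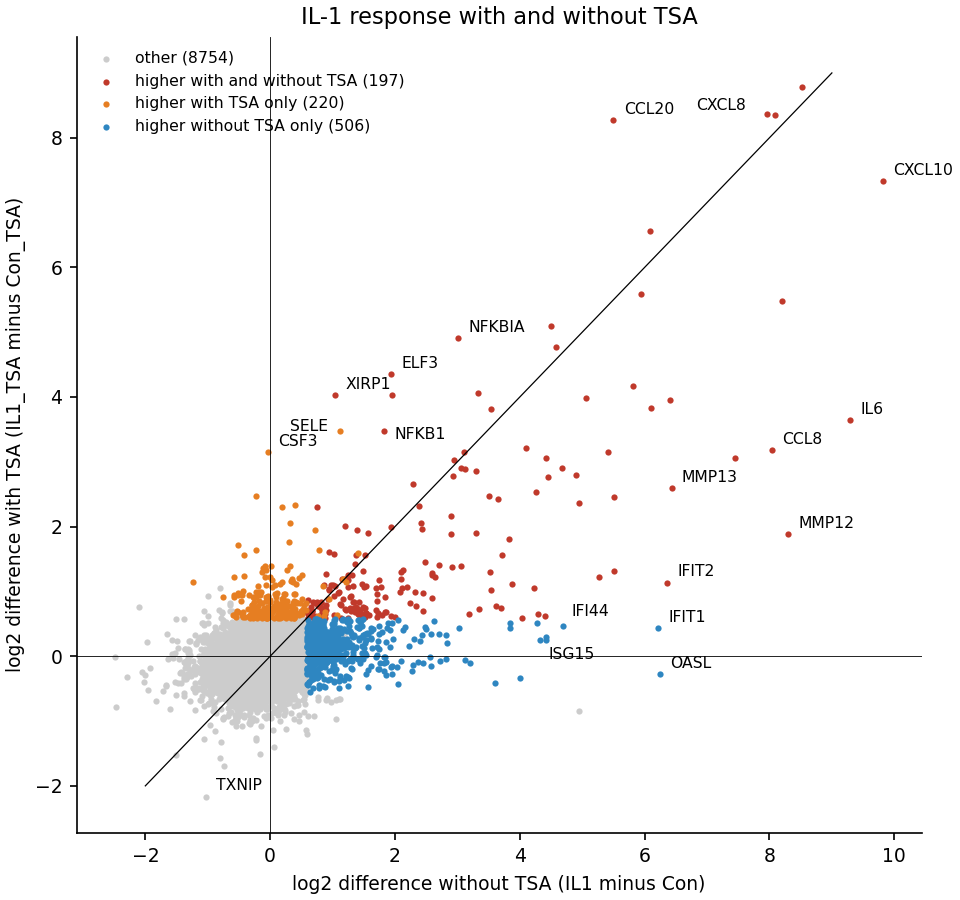
Log2 difference with TSA (IL1_TSA minus Con_TSA, vertical axis) against that without TSA (IL1 minus Con, horizontal axis) for 9677 genes, with the line of equality. The 197 genes higher in both (red) spread from CCL20 and CXCL8 near or above the line to IL6 and MMP12 far below it, and the 506 higher without TSA only (blue) include OASL and IFIT1 near 0 on the vertical axis.

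Both thresholds cut through a continuum. The lowest detection p-value of a member on the TSA arrays lay between 0.005 and 0.01 for 660 genes, whose median level was 6.68, and 709 genes just outside, with a lowest p-value between 0.01 and 0.015, had a median level of 6.15. For the fold, EXT1, a heparan sulphate polymerase, was just inside at 11.83 in IL1_TSA against 11.25 in Con_TSA, and DEFB103B, a defensin, just outside at 8.94 in IL1_TSA against 8.36 in Con_TSA. On the lower side NCAM1, a neural cell adhesion molecule, was just inside with 9.0 in IL1_TSA against 9.58 in Con_TSA, and RAX2, a retinal homeobox factor, was just outside with 7.26 in IL1_TSA against 7.84 in Con_TSA.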

How the data were processed

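Total RNA from 4 cultures of SW1353 cells, 1 for each group, was hybridised to Illumina whole-genome arrays, with samples grouped by their titles. The authors deposited scanner intensity values for 48784 probes, not normalised between arrays, each with a detection p-value, and a second deposited table of log2 values made with lumi (version not given in the sources used here) by variance stabilisation and robust spline normalisation. No column of another sample was left unused.

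Intensities were background corrected, given an offset of 16, quantile normalised and put on the log2 scale with neqc of limma 3.58.1 in R 4.3.3, over all 4 arrays. neqc takes the background from the detection p-values, and quantile normalisation forces equal distributions on the arrays, so a shift shared by most genes cannot be seen. Probes whose detection p-value was under 0.01 on IL1_TSA or Con_TSA were averaged by gene. Genes were named from the platform annotation supplied with the series, which belongs to an older Illumina design than the methods name and lists 27578 probes, 27565 of them with 1 gene. Probes it does not list are unnamed here. RefSeq (GRCh38.p14) matched 27528 of these and changed 0 symbols. RefSeq promoter windows were found for 8014 of the 9677 genes, and probe sequences were not used.

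Genes named were the 30 largest increases and 20 largest decreases detected on both arrays with probes in the same direction, the 10 increases and 5 decreases with the largest bounds, the MMPs, cytokines and HDACs of the study's interest, up to 6 of each of 35 gene lists, up to 10 called in 1 pair only, up to 6 opposite and up to 6 at the threshold. The text gives the few that each group turns on. The members, lists and naming rule were chosen with earlier results of these data known, and the lists of ribosomal, respiratory and other prefix families were trimmed of pseudogenes after values were seen. The counting steps were tested on simulated data. With 1 array per group the number of arrays limits the precision, no test was possible and none is given. Alternatives were another background correction, scaling, offset, detection threshold, probe summary and the deposited values. Of the cell type markers listed, 1 is not reported here.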

Additional observations from a re-analysis of the deposited data

Results flagged for a closer look

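Genes past 1.5-fold in opposite directions with and without TSA were picked out, and the difference between the pairs was not tested for any of them. In all, 13 genes were higher with TSA and lower without, and 8 were lower with TSA and higher without. With undetected genes at their bound, 14 of these 21 were past 1.5-fold in both pairs, and CIART, IFI27 and ZNF415 were not among them. CIART, a repressor of the circadian clock, differed by -0.97 with TSA, at 6.76 in IL1_TSA against 7.73 in Con_TSA, and by 1.05 without, where Con did not detect it and the bound is 0.21. IFI27, an interferon-induced gene, differed by -0.84 with TSA, where IL1_TSA did not detect it, and by 4.95 without (bounds of -0.56 and 4.78), at 11.41 in IL1 against 6.45 in Con. CFL2, the muscle cofilin, differed by 1.05 with TSA and -0.81 without, ZNF415 by 0.94 and -0.99 with no bound above the detection limit, NAP1L3 by 0.75 and -2.11 (bound of -0.99, since IL1 did not detect it), and AKR1B15 by 0.72 and -0.82. Each rests on 1 probe and 1 array a side, and most of the levels are under 8.

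Signal was also present in probes that the annotation used here does not list and that enter no comparison above. Of 21206 such probes 2002 were detected on IL1_TSA or Con_TSA, 124 were higher in IL1_TSA than in Con_TSA by 1.5-fold or more, 16 of them by 4-fold or more, and 0 were lower by 4-fold or more. The genes they report are not named here.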

How the results depend on the processing

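No paired analysis was possible because each group has 1 array and the groups share a single replicate number, and no array could be left out. The number of genes higher in IL1_TSA was 229 without background correction, 2091 with median scaling, 91 on the deposited values and 256 for genes detected on both arrays, against 430. The number lower was 67 without background correction, 45 with median scaling, 12 on the deposited values, 148 with an offset of 50 and 524 at a detection p-value under 0.05, against 281. The share of IL-1-induced genes also induced with TSA was 24.3% without background correction, 57.6% with median scaling, 20.8% on the deposited values, 21.9% with no detection filter and 20.5% for genes detected on both arrays, against 27.7%. Median scaling moved the median difference of all members to 0.36. With that median set to 0, an alternative chosen after seeing the data, 453 were higher, 250 lower and the share was 24.9%. Normalising the 2 TSA arrays alone, using the brightest probe or asking every probe to pass kept both counts within 1.5 times, and the share cannot be computed in the first. Of 137 named genes past the threshold, 122 were still past it with median scaling, 111 without background correction and 60 on the deposited values, and 0 changed sign under any of these settings. The causes of these changes were not tested. Signal over background limits dim genes, and 174 of the 430 higher genes were not detected in Con_TSA.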
